A study of Paralichthys olivaceus with 6 samples.

Results

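The genes described here were a pair of immunoglobulin heavy chain models, GS_000622 and GS_000623.1, and 2 genes with roles in antigen handling and T cell control, IFI30 (GS_005905) and VTCN1 (GS_015243), in the skin of the Japanese flounder, Paralichthys olivaceus. They were picked by gene ID from a table of 22498 genes, of which 16260 had enough counts to be tested, and all 4 were among those tested. They had been singled out by the study as differing between albino and normal fish in these same libraries. Their fold changes are therefore given as a description, and their calls in the test of all genes are not read as evidence. The names are matches to proteins of other species. GS_000622 was matched to the membrane-bound immunoglobulin mu heavy chain of channel catfish, and GS_000623 to the membrane-bound heavy chain of horn shark. The table holds a pair of models with that number. GS_000623.1 was taken as the heavy chain model, since the group means that the study lists for GS_000623 lie close to its values. They are unlike those of GS_000623.2, whose values are given apart.

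RNA-seq libraries were made from skin of the ocular side, the side that carries both eyes, of 3 albino fish (PO_alb1 to PO_alb3) and 3 normally pigmented fish (PO_con1 to PO_con3), with 1 library per fish. All 6 fish were 5 months old and belonged to a single full-sib family, so the groups shared parents and age. The labels record the genotype of a fish only as albino or wild type, and name neither an allele nor a treatment. The pieces were whole skin, and the gene counts of a library therefore combined all cell types in the piece.

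Antibodies are built from heavy and light chains and are made by B cells. The membrane-bound form of the heavy chain is part of the B cell receptor, and IgM, whose heavy chain is called mu, is the main antibody of bony fish. IFI30 encodes a thiol reductase of endosomes and lysosomes that, in mammals, opens disulfide bonds of proteins before their fragments are loaded on MHC class II. VTCN1 encodes a surface protein of the B7 family that, in mammals, restrains T cells.

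Library totals ranged from 17905084 to 20025047 counts. Between 25.1% and 33.5% of the counts of normal fish, and between 28.3% and 37.3% of those of albino fish, fell on the top 10 genes, so counts were scaled by TMM, a method that sets the libraries to a common level over most genes. Normalized counts are counts after this scaling, at the mean library size, and are given with the SD over 3 fish. Where 3 values are given for a group, they follow the numbers of the fish, PO_con1 first for normal and PO_alb1 first for albino fish. A gene was called when edgeR's quasi-likelihood test gave an adjusted p under 0.05 over all 16260 genes. Of these, 148 were called lower in albino fish, which is 0.91%, and 21 were called higher, which is 0.129%. The melanophore markers TYR, PMEL, MLANA and TYRP1 were all called lower, with a summed level of 634 to 971 normalized counts in normal fish and 16.2 to 38.6 in albino fish, and TYR was at 0 in PO_alb1. The study had named these markers from differences in the same libraries, so their calls are a description. The p-values set the group difference against the spread between these fish of a single family, with variance information shared across genes.

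The heavy chain model GS_000622 was seen in every fish and was far lower in all albino fish. Normal fish had 123, 94.3 and 110 normalized counts. Albino fish had 34.6, 8.55 and 13.0. The normal fish lay close together and the albino fish spread widely, PO_alb1 standing above the other albino fish, and the groups did not overlap. The group means were 109 ± 14.5 and 18.7 ± 14.0 (SD, n = 3 fish each), a coefficient of variation of 13.3% in normal and 74.6% in albino fish. The fitted log2 fold change, albino over normal, was -2.52 with a standard error (SE) of 0.43. Without PO_alb1 it was -3.36.

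The second heavy chain model, GS_000623.1, differed more between the groups. Normal fish had 69.6, 50.1 and 120 normalized counts. Albino fish had 1.98, 4.75 and 2.59. PO_con3 stood above the other normal fish, all albino fish were near the bottom of the count range, and the groups did not overlap. The group means were 79.9 ± 36.1 and 3.11 ± 1.46 (SD, n = 3 fish each), and the log2 fold change was -4.61 with an SE of 0.50. The albino values rested on 2, 5 and 2 raw counts, for which the 95% Poisson interval runs from 0.242 to 7.22 for 2 counts and from 1.62 to 11.7 for 5. Such intervals cover counting error only.

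IFI30 was also lower in every albino fish. Normal fish had 136, 192 and 252 normalized counts. Albino fish had 70.2, 32.3 and 23.3. PO_con3 was the highest normal fish and PO_alb1 the highest albino fish, and PO_alb1 stayed below the lowest normal fish. The means were 193 ± 58.0 and 42.0 ± 24.9 (SD, n = 3 fish each), and the log2 fold change was -2.19 with an SE of 0.40. Without PO_alb1 it was -2.78.

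VTCN1 had the smallest difference of the 4 genes. Normal fish had 100.1, 160 and 180 normalized counts. Albino fish had 43.5, 73.2 and 31.1. Here PO_alb2 was the highest albino fish, it lay closest to the normal fish, and the groups did not overlap. The means were 147 ± 41.6 and 49.3 ± 21.6 (SD, n = 3 fish each), and the log2 fold change was -1.56 with an SE of 0.34.

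**Figure D1:**
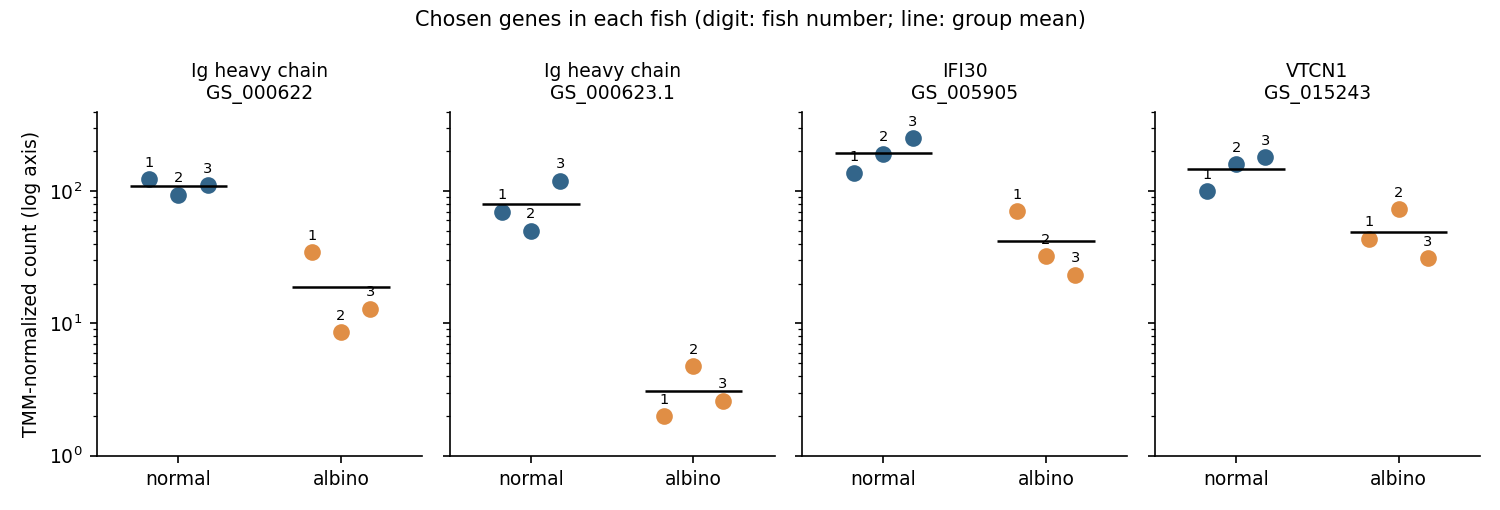
Normalized counts of the 4 genes on log axes, 1 point per fish, blue for normal and orange for albino fish, with the number of the fish beside each point and a line at the mean of each group. In each panel the normal fish lie above the albino fish, and the distance is widest for GS_000623.1, where the means are 79.9 and 3.11.

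The groups did not overlap in 4 of the 4 genes, and 7.47% of all genes tested were lower in every albino fish than in every normal fish. Both heavy chain models were called lower, which is 2 of the 4 genes beside the 0.91% of all genes, and IFI30 and VTCN1 were not called. The call of GS_000622 was lost when any single fish other than PO_alb1 was left out, that of GS_000623.1 in none of these fits, and DESeq2, a second count test, called 4 of the 4 lower, beside 1.69% of all genes. The genes had been chosen on this contrast, so nothing is read from these calls, their number or whether they held without a fish. The median log2 fold change was -2.35 over the 4 genes and 0.01 over all genes tested. The lower counts could come from fewer cells of a type or from less RNA in each cell, which cannot be told apart in whole skin.

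Levels of different genes were compared as RPKM, counts scaled by the coding length of the gene and by the total of the library. In normal fish the mean RPKM was 3.62 for GS_000622 and 4.38 for GS_000623.1, and the fish of the heavy chain models overlapped in RPKM, while the mean was 7.01 for VTCN1 and 17.1 for IFI30. The median RPKM of all genes tested was 6.88 in normal fish, which placed GS_000622 at percentile 31.1, GS_000623.1 at 36.3, VTCN1 at 50.6 and IFI30 at 76.1. In albino fish IFI30 stood at percentile 33.0, VTCN1 at 22.0, GS_000622 at 4.96 and GS_000623.1 at 0.658. The percentiles in albino fish are a description only, since genes low in both groups were filtered out and these genes had been chosen for low albino values.

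The ratio of the 2 heavy chain models was taken within each library, where the scaling of libraries cannot change it. GS_000623.1 had 0.564 counts per count of GS_000622 in PO_con1, 0.531 in PO_con2 and 1.09 in PO_con3. The ratio was 0.0571 in PO_alb1, 0.556 in PO_alb2 and 0.200 in PO_alb3. PO_con1, PO_con2 and PO_alb2 had nearly equal ratios, PO_con3 lay above them, PO_alb1 and PO_alb3 lay below, and the groups overlapped.

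The counting error of the ratio was shown by the share of GS_000623.1 among the counts of both models, with exact Clopper-Pearson 95% intervals. The share was 36.1% (29.1% to 43.5%) of 183 counts in PO_con1, 34.7% (27.0% to 43.0%) of 147 in PO_con2 and 52.1% (46.1% to 58.0%) of 288 in PO_con3. It was 5.41% (0.661% to 18.2%) of 37 counts in PO_alb1, 35.7% (12.8% to 64.9%) of 14 in PO_alb2 and 16.7% (2.09% to 48.4%) of 12 in PO_alb3. The interval of PO_con3 lay above those of the other normal fish, and that of PO_alb1 lay below those of all normal fish. The intervals of PO_alb2 and PO_alb3 were wide and overlapped those of normal fish, though the value of PO_con3 lay above the interval of PO_alb3.

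The mean share was 40.9% ± 9.67 in normal and 19.3% ± 15.3 in albino fish (SD, n = 3 fish each). On the log2 scale the mean ratio was -0.54 ± 0.57 and -2.23 ± 1.53, a difference of -1.69 between the groups, which was near the SD of the albino fish. Over the summed counts of a group, GS_000623.1 made up 267 of 618 counts in normal fish, or 43.2% (39.3% to 47.2%), and 9 of 63 in albino fish, or 14.3% (6.75% to 25.4%). These intervals pool the reads of the fish and cover counting error only, not the spread between fish. Single fish moved the pooled shares. The albino share was 26.9% without PO_alb1 and 8.16% without PO_alb2, and the normal share was 35.5% without PO_con3. As RPKM, which takes the coding lengths of 1089 and 1716 bases into account, the ratio was 0.889, 0.837 and 1.71 in normal fish and 0.0900, 0.875 and 0.315 in albino fish. No test of the ratio between the groups was made, because both models were chosen on that contrast.

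**Figure D2:**
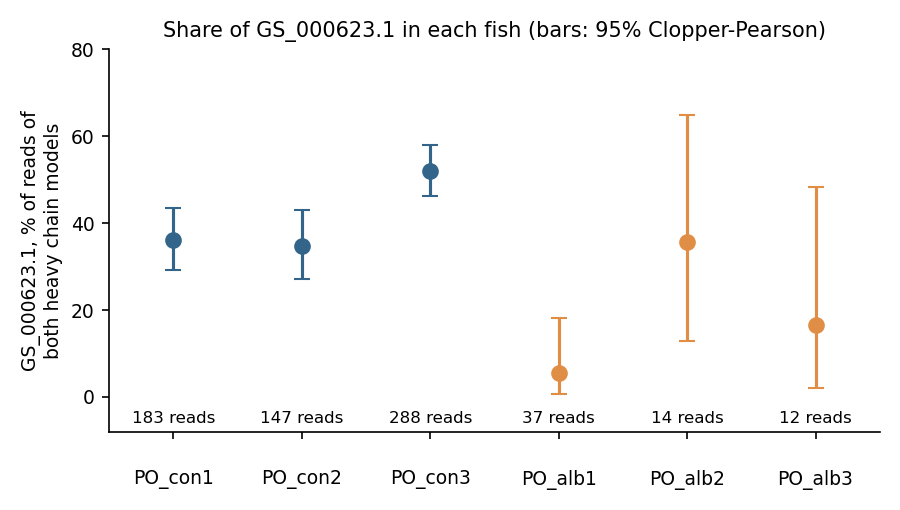
Share of GS_000623.1 among the counts of both heavy chain models, in percent, 1 point per fish with its exact 95% interval and with the number of counts of both models written for each fish. PO_con3 lies above the other normal fish at 52.1%, PO_alb1 is lowest at 5.41%, and the intervals of PO_alb2 and PO_alb3 reach into the range of normal fish.

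Both models together had 193, 144 and 230 normalized counts in normal fish and 36.6, 13.3 and 15.5 in albino fish. The summed level was 189 ± 43.1 in normal and 21.8 ± 12.9 in albino fish (SD, n = 3 fish each). Heavy chain models that resemble each other may share reads. How the counting treated such reads is not given in the sources used here, so they could affect both the split and the sum. GS_000623.2, the other model with that number, had 170 ± 18.9 normalized counts in normal fish and 164 ± 6.40 in albino fish (SD, n = 3 fish each), with a log2 fold change of -0.06, an SE of 0.15 and a 95% interval of -0.40 to 0.28.

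The other adaptive immunity genes were compared with the heavy chain models. This list was KACB, FCAMR, PRDM1, FYN and P2RY8, and 4 of its 5 genes had enough counts to be tested. FCAMR and PRDM1 were called lower in albino fish, beside 0.91% of all genes, and none was called higher, beside 0.129%. FYN and P2RY8 did not pass the test. At an unadjusted p under 0.05, which 5.16% of all genes passed as lower and 2.7% as higher, 3 were lower and 1 was higher. DESeq2 called 3 lower and 1 higher, beside 1.69% and 0.554% of all genes. The median log2 fold change of the 4 genes was -1.55, beside 0.01 over all genes. The study had named all of these genes from differences in the same libraries, so their direction is not independent evidence.

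KACB (GS_016824) was matched to the constant region of the rat kappa light chain, a partner of the heavy chain in an antibody. It had 9 counts in PO_con1, 7 in PO_con2 and 15 in PO_con3, and 0, 1 and 0 in albino fish. It was thus seen in all normal fish and in PO_alb2 alone of the albino fish. Summed over the fish, 31 counts stood against 1, a ratio of normal to albino of 27.3 with an exact 95% interval of 4.55 to 1113, which pools the reads of the fish and covers counting error only. The gene was too low to be tested.

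FCAMR (GS_014594) encodes a cell surface receptor that binds the constant part of IgM and IgA in mammals. It had 80.1, 87.4 and 93.6 normalized counts in normal fish and 30.7, 20.9 and 19.4 in albino fish. The fish of each group lay close together and the groups were far apart. FCAMR fell by 1.87 on the log2 scale with an SE of 0.24 (adjusted p = 0.011, edgeR's quasi-likelihood test). The call was lost without PO_con2, PO_alb2 or PO_alb3, with adjusted p of 0.077, 0.061 and 0.061.

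PRDM1 (GS_013618) encodes a transcription factor that, in mammals, drives B cells to become antibody-secreting plasma cells and also acts in T cells and in the epidermis. It had 152, 136 and 190 normalized counts in normal fish and 64.3, 48.5 and 38.9 in albino fish. No albino fish reached the lowest normal fish. PRDM1 fell by 1.64 on the log2 scale with an SE of 0.23 (adjusted p = 0.019, edgeR's quasi-likelihood test). The call held without PO_alb1 and was lost when any other single fish was left out, with adjusted p of 0.05 after rounding without PO_con1, 0.071 without PO_con2, 0.061 without PO_con3, 0.087 without PO_alb2 and 0.081 without PO_alb3.

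FYN and P2RY8 did not pass the edgeR test. FYN (GS_004260) encodes a tyrosine kinase that acts in T cell receptor signalling and in many other cells. Normalized counts stood at 2604, 3027 and 4532 in normal fish and at 963, 1782 and 962 in albino fish. All albino fish were below the normal fish, and PO_alb2 was the highest of them, as for VTCN1. The log2 fold change was -1.45 with an SE of 0.32 and a 95% interval of -2.18 to -0.73, and the adjusted p of edgeR's quasi-likelihood test was 0.12.

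P2RY8 (GS_006488) encodes a receptor that, in human, keeps B cells within germinal centres, structures of lymphoid tissue that bony fish lack in their mammalian form. Normalized counts stood at 30.6, 39.3 and 64.8 in normal fish and at 123, 90.3 and 104 in albino fish. It was the only gene of the list with higher values in all albino fish, as were 5.73% of all genes tested. The log2 fold change was 1.22 with an SE of 0.29 and a 95% interval of 0.54 to 1.89, and the adjusted p of edgeR's quasi-likelihood test was 0.17. The difference between the groups was therefore opposite in direction to that of the heavy chain models, without passing the test. This holds for the groups and not for the order of the fish within a group.

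**Figure D3:**
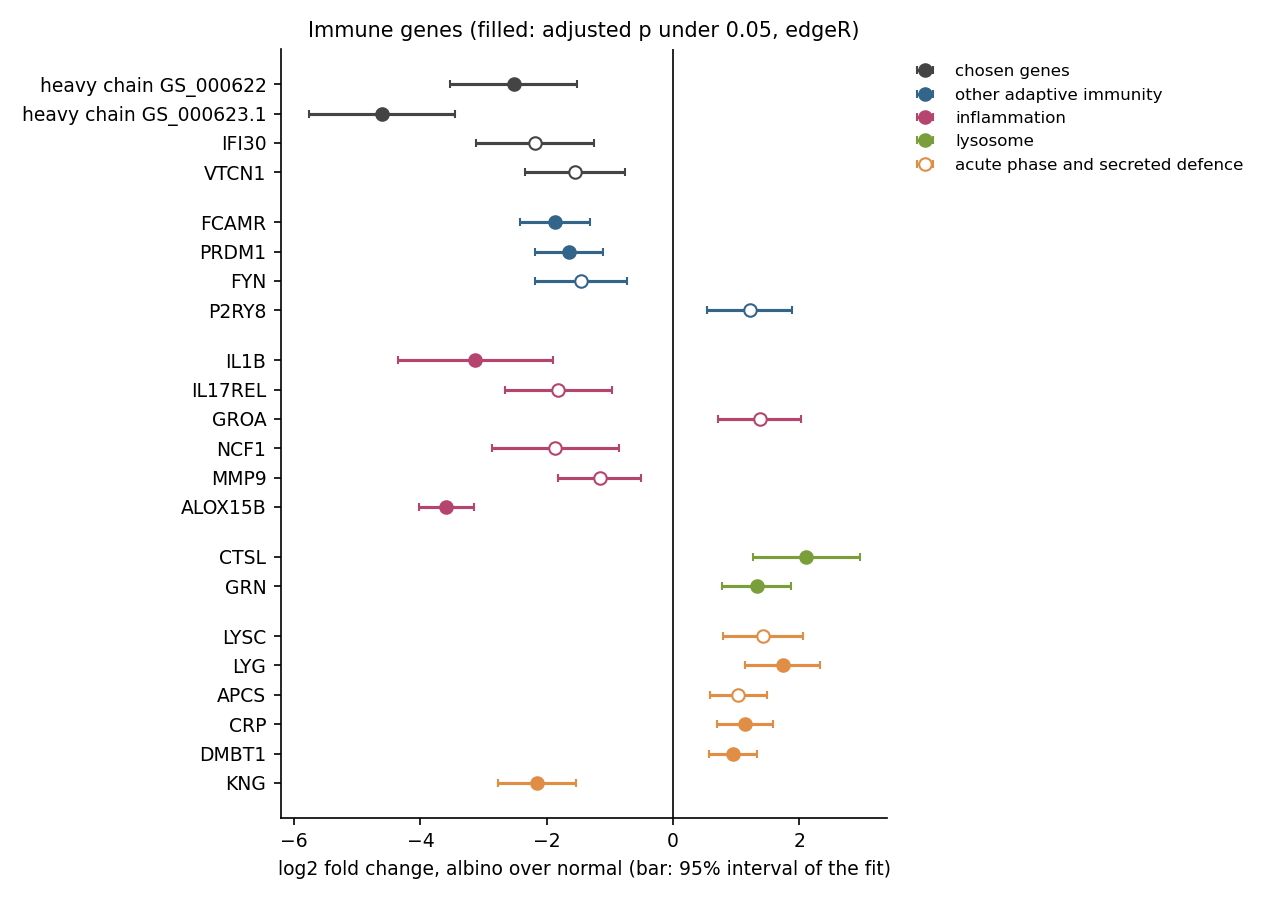
Log2 fold change, albino over normal, with its 95% interval for the 4 chosen genes, the other adaptive immunity genes and named genes of inflammation, the lysosome and secreted defence. Filled points passed an adjusted p of 0.05 in edgeR's quasi-likelihood test and open points did not. The 4 chosen genes were picked on this contrast, so their fill is a description only. GS_000623.1 has the lowest value, -4.61, and P2RY8 at 1.22 is the only adaptive immunity gene right of 0.

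Whether these genes followed the heavy chain models from fish to fish was described on log2 CPM. Here CPM are counts set to a common library size after TMM scaling. The mean of each gene over the 6 fish was removed. The distance of a gene from the summed heavy chain models was the root mean square difference over the fish. Among 16258 genes ranked, IFI30 was at rank 20 with a distance of 0.54, FCAMR at 58 with 0.71 and PRDM1 at 78 with 0.79. VTCN1 stood at rank 185 with a distance of 1.02, FYN at 203 with 1.06 and P2RY8 at 16130. These ranks contain the difference between the groups on which the genes had been chosen.

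With the mean of each group removed as well, PRDM1 was at rank 273 with a distance of 0.28. FCAMR was at 417 with 0.30 and IFI30 at 613 with 0.33. P2RY8 stood at 2015 with 0.39, FYN at 14253 with 0.67 and VTCN1 at 14412 with 0.68. The distance counts the size of deviations as well as their direction. A gene with little spread inside the groups can therefore rank ahead of one that varies more. In albino fish 54 of the 63 counts of the sum were of GS_000622, so among them these ranks mostly describe likeness to that model. PO_alb1 was the highest albino fish for GS_000622, IFI30, FCAMR, PRDM1 and P2RY8. PO_alb2 was the highest for GS_000623.1, VTCN1, FYN and, by 1 count, KACB. The place of GS_000623.1 in this order rests on 5 counts against 2 and 2, whose intervals overlap. This rests on 6 fish, and 7783 genes had a distance under 0.5 once the group means were removed.

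Only genes that the study had chosen on this contrast carry a name here, so the nearest named genes come from that choice and are a description. Those nearest to the summed heavy chain models over all 6 fish were SLC2A9 (GS_014684), with a distance of 0.30, ALK (GS_006767) with 0.38, OCA2 (GS_017193) with 0.40, SLC22A7 (GS_007375) with 0.43 and a further SLC2A9 model (GS_014685) with 0.44. ALK encodes a receptor tyrosine kinase and OCA2 a melanosome protein needed for pigment. SLC2A9 is a hexose and urate transporter and SLC22A7 an organic anion transporter. With the group means removed, ALK with 0.13, SPR (GS_007124) with 0.16, FAM123A (GS_004712) and MLANA with 0.19 and ADRB1 (GS_008611) with 0.21 were the nearest named genes, at ranks 5, 16, 34, 37 and 62 of all genes ranked. SPR encodes the last enzyme of tetrahydrobiopterin synthesis, MLANA a melanosome protein and ADRB1 an adrenergic receptor. ALK was in both lists.

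**Figure D4:**
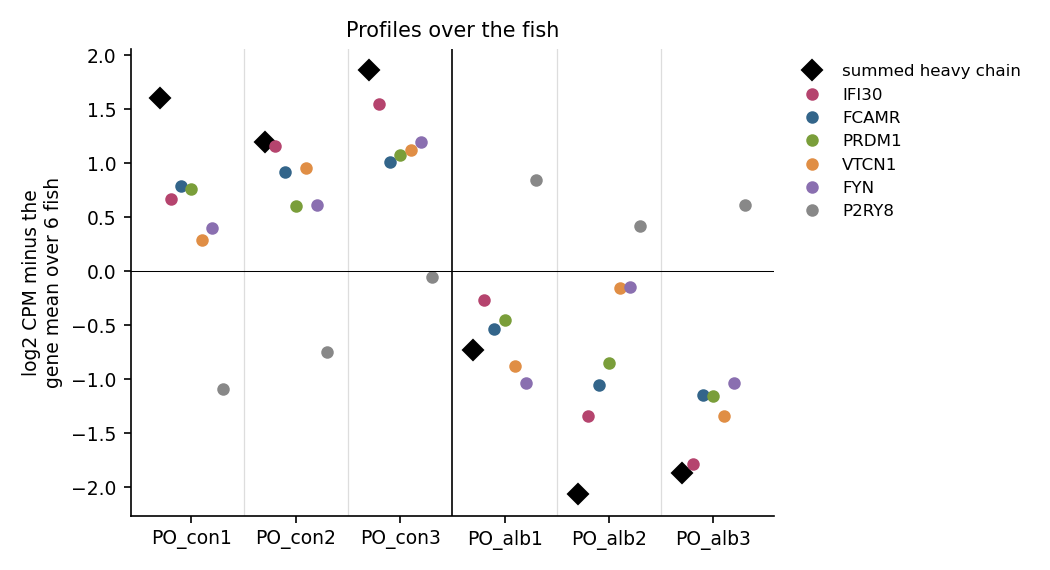
Log2 CPM of each gene minus its mean over the 6 fish, with a column per fish, black diamonds for the summed heavy chain models and circles for IFI30, FCAMR, PRDM1, VTCN1, FYN and P2RY8. The diamonds run from 1.86 in PO_con3 to -2.06 in PO_alb2, VTCN1 and FYN stay at -0.15 in PO_alb2, and P2RY8 is above 0 in the albino fish.

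Among the normal fish, PO_con3 had the highest normalized count in 8 of the 9 genes described so far (the 4 chosen genes and the 5 of the adaptive list), the exception being GS_000622, which was highest in PO_con1. PO_alb3 was the highest albino fish for 0 of the 9 and the lowest for 5. PO_con3 and PO_alb3 also stood apart in library composition, with the highest TMM factor, 1.27, and the lowest, 0.791. The part of library composition in the order of the fish was not tested.

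Markers of other tissue moved with the groups as well. The 4 muscle markers DES, TNNT2, MUSTN1 and METTL21C summed to 12280 to 24719 normalized counts in normal fish, lowest in PO_con3, and to 33612 to 47669 in albino fish, highest in PO_alb3. The sum was almost all DES, with a mean of 19081 in normal fish. DES was not called (adjusted p = 0.33, edgeR's quasi-likelihood test). Of these 4 genes, 1 was called higher, beside 0.129% of all genes, and 0 lower. The called gene was METTL21C (log2 fold change 1.23, adjusted p = 0.037, the same edgeR test). METTL21C lost its call in 9 of 15 alternatives, among them whenever a fish other than PO_alb2 was left out. At an unadjusted p under 0.05, 4 were higher, beside 2.7% of all genes, and 0 lower. With DESeq2, 3 were higher, beside 0.554% of all genes, and 0 lower. The 3 keratin genes KRT18 and KRT13 (GS_018838 and GS_014679), markers of epithelium, summed to 23486 to 39956 in normal fish, highest in PO_con3, and to 8282 to 13641 in albino fish, lowest in PO_alb3. Of these, 2 were called lower, beside 0.91% of all genes. They were KRT18 and GS_018838, with means of only 146 and 119 in normal fish. The keratin sum was almost all GS_014679, with a mean of 29731 in normal fish. GS_014679 was not called (adjusted p = 0.076, edgeR's quasi-likelihood test). At an unadjusted p under 0.05 and with DESeq2, 3 of 3 were lower, beside 5.16% and 1.69% of all genes. The study also lists these 3 keratin models among pigmentation genes known from earlier work. The neutrophil markers NCF1 and MMP9 summed to 722 to 1128 in normal and 255 to 541 in albino fish. This sum was almost all MMP9, with a mean of 869 in normal fish against 33.0 for NCF1. Of the 2 genes, 0 passed the edgeR test. At an unadjusted p under 0.05, 2 of 2 were lower, beside 5.16% of all genes. With DESeq2, 2 of 2 were lower, beside 1.69% of all genes. For B lineage cells, both heavy chain models and KACB summed to 151 to 242 in normal and 14.3 to 36.6 in albino fish, with KACB at 0 in PO_alb1 and PO_alb3. This sum was almost all of the chosen heavy chain models, with a mean of 189 in normal fish against 9.45 for KACB. Its difference therefore repeats that of the chosen genes and is no separate result. P2RY8, which acts in B cells in human, was not in this set and was higher in all albino fish. The study had picked all these markers from the same libraries, and their part in the values of the immune genes was not tested.

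Counts were also set against KRT13 (GS_014679) in the same fish, an abundant keratin that the study lists among pigmentation genes. This choice was made after its values were seen. KRT13 itself had a log2 fold change of -1.47 (adjusted p = 0.076, edgeR's quasi-likelihood test), and dividing by it moves the difference of every gene upward by a like amount. Per 10000 counts of KRT13, GS_000622 had 53.1, 35.8 and 27.8 counts in normal fish and 25.5, 8.29 and 15.7 in albino fish, and GS_000623.1 had 29.9, 19.0 and 30.3 against 1.45, 4.61 and 3.14. Both models stayed without overlap, with log2 differences of -1.28 and -2.98.

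IFI30 had 58.5, 73.2 and 63.5 counts per 10000 of KRT13 in normal fish and 51.7, 31.3 and 28.2 in albino fish, a log2 difference of -0.84 with no overlap. VTCN1 had 43.1, 60.8 and 45.4 against 32.0, 71.0 and 37.7, a log2 difference of -0.15, and its groups overlapped. FYN was alike, with 1121, 1150 and 1143 against 709, 1728 and 1166 and a log2 difference of -0.02. The log2 difference was -0.42 for FCAMR, -0.20 for PRDM1 and 2.75 for P2RY8. FCAMR and PRDM1 stayed apart only narrowly. The lowest normal fish had 23.60 and 47.80 counts per 10000 of KRT13, and the highest albino fish 23.54 and 47.29. The division moves all genes of a fish alike. Which genes stay apart depends on the size and spread of their values after TMM and on how these follow KRT13 from fish to fish. Nothing further is read from which genes stay apart.

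**Figure D5:**
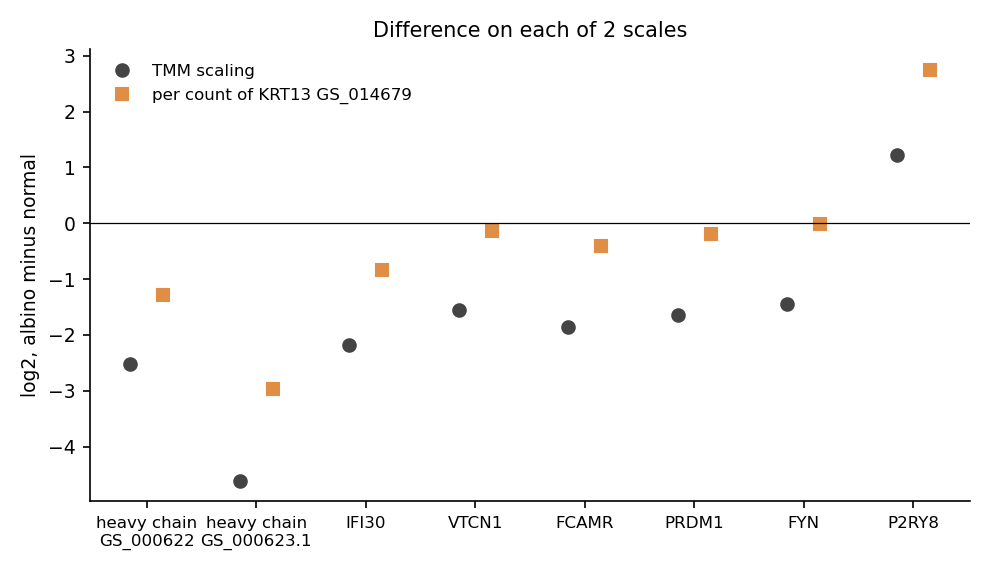
Log2 difference, albino minus normal, of 8 genes after TMM scaling (grey circles) and per count of KRT13 (GS_014679) in the same fish (orange squares). Each square lies above its circle, the squares of VTCN1 at -0.15 and FYN at -0.02 lie near 0, and that of GS_000623.1 remains at -2.98.

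Genes of innate defence were counted beside the adaptive genes. Of 15 genes tested, 3 were called lower, 6 higher and 6 did not pass, beside 0.91% lower and 0.129% higher over all genes. The median log2 fold change was -1.84 for inflammation, 1.37 for the lysosome and 1.09 for secreted defence. The study had chosen these genes on the same libraries too. The number called higher was 0 to 3 with 1 fish left out. It was 0 without PO_con2, 1 without PO_alb1 or PO_alb3, 2 without PO_con1 or PO_alb2 and 3 without PO_con3. The number called lower was then 1 to 3 (1 without PO_con2, PO_alb1 or PO_alb3). Over all genes, leaving out 1 fish also lowered the numbers called, to 2 to 14 higher and 67 to 138 lower. The part of the smaller number of fish in these losses was not tested. Calls in the lists of innate defence were in both directions.

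Among 6 genes of inflammation, 2 were called lower and 4 did not pass. IL1B, the cytokine interleukin-1 beta, fell by 3.13 on the log2 scale (adjusted p = 0.043, edgeR's quasi-likelihood test), and ALOX15B, a lipoxygenase, fell by 3.59 with an SE of 0.19 (adjusted p = 0.00022, the same edgeR test). IL1B lost its call in 9 of 15 alternatives, among them those without PO_con2, PO_con3, PO_alb1, PO_alb2 or PO_alb3, and ALOX15B in 0. The log2 fold changes that did not pass were -1.81 for IL17REL, an interleukin-17 receptor-like gene, -1.86 for NCF1, a subunit of the phagocyte oxidase, -1.16 for MMP9, a matrix protease, and 1.37 for GROA, a chemokine.

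The lysosomal genes CTSL and GRN, which belong to the compartment in which IFI30 acts, were called higher, in the direction opposite to IFI30. The log2 fold changes were 2.11 for CTSL, a protease, and 1.32 for GRN, a lysosomal and secreted glycoprotein (adjusted p = 0.045 and 0.048, edgeR's quasi-likelihood test). Of 15 alternatives, CTSL lost its call in 9 and GRN in 12. Of 6 secreted defence and acute phase genes, 3 were called higher, 1 was called lower and 2 did not pass. LYG, a goose-type lysozyme, rose by 1.74, CRP, a pentraxin, by 1.14 and DMBT1, a scavenger receptor protein of mucosa, by 0.95, while KNG, a kininogen, fell by 2.15 on the log2 scale (adjusted p = 0.023, 0.043, 0.044 and 0.0097, edgeR's quasi-likelihood test). Of 15 alternatives, LYG lost its call in 6 (among them without PO_con2 or PO_con3) and KNG in 4 (among them without PO_con2, PO_alb1 or PO_alb3). CRP lost its call in 10, among them whenever a fish other than PO_con3 was left out, and DMBT1 in 11, among them whichever fish was left out. The other pair had log2 fold changes of 1.43 (LYSC, a lysozyme) and 1.04 (APCS, a pentraxin).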

How the data were processed

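The authors removed adapter and low-quality reads from paired reads, mapped them to the flounder genome with TopHat2 2.0.9 and Bowtie2 2.0.6, assembled transcripts with Cufflinks 2.1.1 and counted reads per gene with HTSeq. The genome build and the strand setting of the counting are not given in the sources used here. The deposited counts are whole numbers with no scaling, and the deposited RPKM are, per the values, those counts divided by gene length and by the summed counts of the library. For 20120 of 20121 numbered genes the implied length was a multiple of 3, so it is a coding length. The authors tested their counts with DESeq.

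Here genes were kept by filterByExpr of edgeR 4.0.16, scaled by TMM and tested with edgeR's quasi-likelihood test, albino against normal with no other term, with Benjamini-Hochberg adjustment over 16260 genes and a threshold of 0.05. Fold changes are albino over normal. The script was tested on simulated data. The libraries of a group differed by more than sampling noise. R 4.3.3, limma 3.58.1, DESeq2 1.42.0, Python 3.11.15 and matplotlib 3.10.9 were used.

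The genes named were the 4 chosen genes, the genes of the lists (1 of which is counted but not reported by name here), the 5 named genes nearest to the summed heavy chain models in each of the 2 rankings, and tested genes whose ID number lay within 3 of a chosen gene. CPM values for the rankings had a prior count of 2 added, and log2 ratios of the heavy chain models had 0.5 added to each count. The genes and lists were chosen with earlier results of these data known. Names are from the matches in the study's tables, some given by their standard symbol. Protein and promoter sequences were not used here, because the gene table at hand does not pair these IDs with its entries. Alternatives were RLE scaling, library totals only, other filters on low counts, DESeq2, limma-trend on log2(RPKM + 1) and log2(RPKM + 0.1), a robust variance, the replicate number as a block, leaving out each fish, and counts relative to KRT13.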

Additional observations from a re-analysis of the deposited data

How the results depend on the processing

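No fold change of a chosen or listed gene changed sign under the 15 alternatives run for all of them. Counts relative to KRT13 were taken only for the chosen and adaptive genes, none of which changed sign. Genes called lower were 148 in the main test, 274 with DESeq2, 89 with limma on log2(RPKM + 1) and 67 to 138 without 1 fish. Genes called higher were 21, and 90 with DESeq2, 7 with library totals only, 13 with a CPM filter of 1, 7 and 6 with limma on log2(RPKM + 1) and log2(RPKM + 0.1), and 2 to 14 without 1 fish. Library totals only and limma on log2(RPKM + 0.1) shifted the median of all genes to -0.13 and -0.12.

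The adaptive genes called lower, 2 in the main test, were 0 with library totals only, 1 with either limma fit and 0 to 2 without 1 fish, and DESeq2 called 1 higher (P2RY8). The comparison genes called lower, 3 in the main test, were 6 with DESeq2 and 1 to 3 without 1 fish. Those called higher, 6 in the main test, were 9 with DESeq2 and 8 with no filter on low counts. They were 1 with library totals only, 2 with the CPM filter, 0 with either limma fit and 0 to 3 without 1 fish.

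The deviations of fish from their group mean were correlated at -0.17, 0.18 and -0.44 for fish with the same number. For fish with different numbers the correlations ran from -0.30 to 0.43. With 3 fish in a group, these values cannot decide whether the numbers pair the fish. With the replicate number as a block, the calls over all genes were 53 lower and 4 higher, those of adaptive genes 0 lower, and those of comparison genes 1 lower and 1 higher.

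The log2 fold change was -1.58 for GS_000622 and -2.11 for GS_000623.1 with limma on log2(RPKM + 1), a scale that understates changes of low genes. Without 1 fish it was -3.36 to -2.15 for GS_000622, -5.08 to -4.17 for GS_000623.1, -2.78 to -1.93 for IFI30 and -1.96 to -1.34 for VTCN1. Relative to KRT13, chosen after seeing the data, it was -1.28, -2.98, -0.84 and -0.15. The difference in log2 ratio of the heavy chain models ran from -2.41 to -0.89. The ranking by likeness shared 1 of 5 nearest named genes once group means were removed. Elsewhere the cause was not tested. In albino fish the 9 counts of GS_000623.1 limit the ratio.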

Other observations

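Genes with ID numbers within 3 of a chosen gene were listed as values. There were 19, of which 13 could be tested and 2 were called, both lower and both beside IFI30. Of all genes tested, 0.91% were called lower. The study had named both called neighbours from differences in these same libraries. They were GCH1 (GS_005902), which encodes the first enzyme of tetrahydrobiopterin synthesis, at a log2 fold change of -8.49 by the model (adjusted p = 0.0004, edgeR's quasi-likelihood test), and GS_005903, which had 0 counts in every albino fish (adjusted p = 0.0025, the same edgeR test). GS_005904, whose number lies between these and IFI30, had 111, 79 and 53 counts in normal fish and 143, 119 and 70 in albino fish, and a log2 fold change of 0.56. The 11 tested genes that were not called had log2 fold changes of -1.43 to 0.56. Whether the order of ID numbers is the order on the chromosome was not tested.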
